A study of Mus musculus with 10 samples.

Results

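The genes of 10 acute-phase proteins were followed in primary hepatocytes of C57BL/6 mice: Saa1, Saa2, Saa3, Saa4, Hp, Hpx, Orm1, Orm2, Lcn2 and Crp. They were chosen by name among the 18055 genes listed in any of 10 RNA-Seq libraries, and all 10 had enough counts to be tested. Hepatocytes were isolated by collagenase perfusion, plated in medium with serum for a few hours and kept overnight without serum before treatment. They formed 5 groups of 2 libraries: Vehicle, 200 uM palmitate for 24 h (PA), 200 uM palmitate after 1 h of Neurotropin (PA+NTP), 12 uM linoleate for 24 h (LA), and 12 uM linoleate after 1 h of Neurotropin (LA+NTP). Neurotropin (NTP) is an extract of inflamed rabbit skin used as an analgesic, and the RNA-Seq experiment used 0.4 NU/mL. PA is a saturated and LA an unsaturated free fatty acid (FFA), and both were given to load the cells with lipid. No group received NTP without an FFA, and the labels do not say whether the 2 libraries of a group came from separate mice or cultures, so the p values measure only the spread between these libraries.

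Acute-phase proteins are plasma proteins whose output by the liver changes during inflammation. Interleukin-6 acting through STAT3, and interleukin-1 and tumor necrosis factor acting through NF-kappaB, induce their genes together with factors of the C/EBP family. The positive acute-phase proteins rise and the negative ones, such as albumin, fall. The serum amyloid A proteins (Saa) travel on high-density lipoprotein, haptoglobin (Hp) binds free hemoglobin, hemopexin (Hpx) binds heme, lipocalin 2 (Lcn2) binds the iron carriers of bacteria, the orosomucoids (Orm) bind lipophilic compounds, and C-reactive protein (Crp) is a pentraxin that binds phosphocholine. In mice Crp is a minor acute-phase protein, and the related pentraxin Apcs takes the larger part.

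Among the acute-phase genes, Crp rose with each FFA alone and Lcn2 rose when NTP was added to an FFA. Crp rose 1.98-fold with PA and 1.52-fold with LA. Lcn2 rose 1.76-fold with PA+NTP against PA and 1.52-fold with LA+NTP against LA. The LA call of Crp and the LA+NTP call of Lcn2 were lost when a trend of the fold changes with GC content was removed (0.23 and 0.40 on the log2 scale). Saa2 moved less: it was above Vehicle with each FFA and back near Vehicle with NTP, and no step reached 1.5-fold. The remaining genes passed the test in none of the 4 comparisons. A call required a fold change of at least 1.5 and an edgeR quasi-likelihood p under 0.05 after Benjamini-Hochberg adjustment over 14097 tested genes. This is what "passed the test", "rose" and "fell" mean throughout.

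The promoters of 8 of the 10 genes were found in the RefSeq table of GRCm38.p6, and 4 are shown, those of Crp and Lcn2 because these genes passed the test and those of Saa1 and Saa2 because the levels of this near-identical pair are compared. Each line gives the 250 bases before the transcription start, 5′ to 3′ on the strand of the gene, and capitals mark the C/EBP motif TTGCNNAA on either strand. The Saa1 stretch lies at chr7:46742981-46743230 on the minus strand, Saa2 at chr7:46751583-46751832 on the plus strand, Lcn2 at chr2:32387740-32387989 on the minus strand and Crp at chr1:172697806-172698055 on the plus strand. The start that the promoter table takes for Saa1, and likewise for Saa3, lies inside the wider span that RefSeq gives the gene.
Saa1: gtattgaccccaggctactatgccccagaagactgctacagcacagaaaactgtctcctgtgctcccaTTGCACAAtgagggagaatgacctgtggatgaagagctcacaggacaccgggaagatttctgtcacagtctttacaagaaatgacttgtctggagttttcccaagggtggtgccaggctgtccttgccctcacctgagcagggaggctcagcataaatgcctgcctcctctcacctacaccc
Saa2: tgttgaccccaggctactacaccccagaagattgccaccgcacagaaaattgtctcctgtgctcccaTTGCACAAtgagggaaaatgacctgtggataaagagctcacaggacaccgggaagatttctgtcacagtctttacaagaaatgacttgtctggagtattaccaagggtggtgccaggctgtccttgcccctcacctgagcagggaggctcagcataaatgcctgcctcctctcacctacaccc
Lcn2: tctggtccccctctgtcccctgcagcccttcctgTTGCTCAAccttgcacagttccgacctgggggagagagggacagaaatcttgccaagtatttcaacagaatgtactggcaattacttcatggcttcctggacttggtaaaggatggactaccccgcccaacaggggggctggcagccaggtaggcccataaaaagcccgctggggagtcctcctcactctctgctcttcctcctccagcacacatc
Crp: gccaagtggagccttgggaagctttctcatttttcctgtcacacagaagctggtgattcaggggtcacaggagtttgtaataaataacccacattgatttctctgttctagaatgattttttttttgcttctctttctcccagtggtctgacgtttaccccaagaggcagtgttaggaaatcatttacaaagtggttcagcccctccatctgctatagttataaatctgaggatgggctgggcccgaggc

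Saa1 and Saa2 are neighbors that are read in opposite directions, and their promoters, taken over 300 bases, were identical in 287 of 301 aligned columns, 95.3%. The C/EBP motif was found in 7 of the 8 promoters, all but Crp, against 10.8% of 32851 promoters of the same length in the table. The matches with up to 10 bases on each side are set below one another to show how they differ. In Saa3 and in the downstream match of Saa4 the motif lies on the other strand.
Saa1: tgtgctcccaTTGCACAAtgagggagaa
Saa2: tgtgctcccaTTGCACAAtgagggaaaa
Saa3: gtaagtgggaTTATGCAAgatcaaacag
Saa4 (upstream match): gaaacTTGCCAAAacacaaacat
Saa4 (downstream match): ccaggaaggaTTGAGCAAgagggactct
Hpx: ggctggaaatTTGCTGAAgggggtaggg
Orm2: agagaacattTTGCGCAAgacatttccc
Lcn2: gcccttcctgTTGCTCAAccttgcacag

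Saa1 and Saa2 shared the same 8 letters. The downstream match of Saa4, read on the other strand, has the same 8 letters as that of Lcn2. Orm2 and Hpx each held another version of the motif. The STAT motif TTCNNNGAA was found in 0 of the 8 promoters and in 8.3% of all promoters. The NF-kappaB consensus was found in 0 of the 8 and in 8.46% of all. A match is a description of letters in these windows, and binding was not measured.

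The 10 genes lie on 5 chromosomes. In GRCm38.p6, the 4 Saa genes form a cluster on chromosome 7, with Saa3 at 46711998 to 46719615, Saa4 at 46727992 to 46732603, Saa1 at 46740497 to 46743181 and Saa2 at 46751833 to 46754313. Hpx lies on the same chromosome at 105591611 to 105600116. Orm1 at 63344556 to 63348163 and Orm2 at 63362449 to 63365877 are neighbors on chromosome 4. Lcn2 lies on chromosome 2 at 32384637 to 32387739, Hp on chromosome 8 at 109575128 to 109579172 and Crp on chromosome 1 at 172698056 to 172699966. No exon of the 10 genes overlapped an exon of another gene.

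The libraries held between 13142588 (PA replicate 1) and 60046937 (LA+NTP replicate 2) expected counts. Hepatocyte markers were present throughout, with 7 of 7 detected and their summed FPKM (fragments scaled for gene length and library size) from 2210 to 3930. The neutrophil markers S100a8, S100a9, Ly6g and Mpo were in none of the 10 tables and so were taken as 0, and the 7 neutrophil markers summed to 0.28 to 0.67 FPKM. In each library the fold of a gene against the mean correlated with its GC content across 13972 genes, with Spearman's rho from -0.466 to -0.556 in the 4 libraries with an FFA alone and from 0.335 to 0.558 in the other 6. The comparisons were therefore also made with that trend removed, and the value is given where a named gene lost a call. Fewer cells of a type and less RNA per cell cannot be told apart in such bulk libraries.

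The levels of the 10 genes spanned a wide range in every library. Hpx ranked first of the 10 everywhere, from 4420.4 to 5551 FPKM, and stood at rank 3 to 8 among all genes. Hp ranked second, from 1252 to 2188 FPKM. Saa1 lay between 281 and 387 FPKM, Orm1 and Orm2 between 259.75 and 325, Lcn2 between 92.4 and 375, Saa2 between 91.6 and 146, and Saa4 and Crp between 15.7 and 35.1. Saa3, which macrophages and fat cells express more than hepatocytes do, was the lowest in all 10 libraries at 3.18 to 9.83 FPKM. Together the 10 genes took 1.37% to 1.83% of the FPKM of a library, and Hpx made up 60.5% to 66.4% of that. The widest range of group means was that of Lcn2, 1.65 on the log2 scale, followed by Crp with 0.963, Saa3 with 0.662 and Saa2 with 0.603. For Saa3, Hp, Saa1, Saa4 and Orm1 the largest difference between 2 replicates exceeded the range of the group means. These differences were 0.881, 0.608, 0.356, 0.248 and 0.207, in that order.

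**Figure D1:**
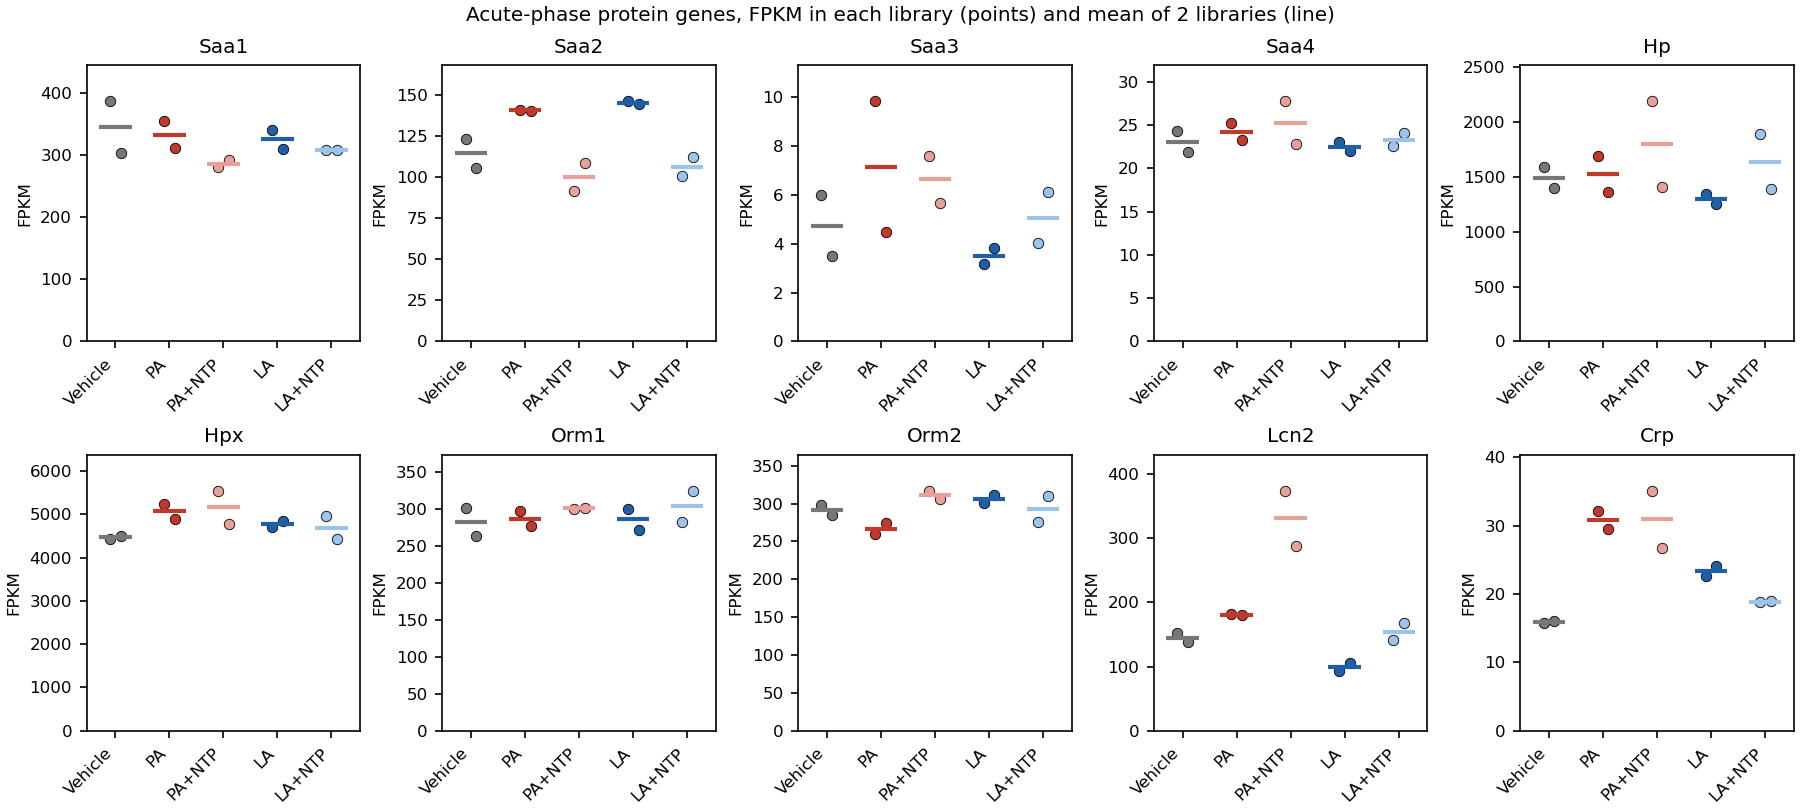
Level of each acute-phase gene in FPKM (vertical axis, from 0) in the 5 groups, with 1 point per library and a line at the mean of 2 libraries. Lcn2 reached 375 and 288 in PA+NTP and was lowest in LA at 92.4 and 105, Crp was lowest in Vehicle, and Hpx and the orosomucoids lay within narrow ranges.

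Crp, the pentraxin, was at 15.7 and 16 FPKM in Vehicle, 32.1 and 29.5 in PA, 35.1 and 26.7 in PA+NTP, 22.6 and 24.1 in LA, and 18.9 and 18.9 in LA+NTP. All libraries with an FFA lay above both Vehicle libraries, and all PA libraries lay above all LA libraries. With PA it was the 1 gene of 10 that rose, by 0.98 on the log2 scale (SE 0.11, adjusted p = 6.87e-06), and none of the 10 fell. Among all tested genes 14.9% were called in this comparison, 6.00% higher and 8.92% lower. The value was 0.64 with the GC trend removed and 0.92 to 1.06 when any library was left out, still called each time. The summed hepatocyte markers were 2440 and 2210 FPKM in PA against 3300 and 3110 in Vehicle. Nearly all of this was Alb (albumin) and Apoa1, which are also negative acute-phase proteins. Of the 7 markers 3 fell and 0 rose with PA. Cyp2e1 was at 20.04 and 20.74 FPKM in PA against 18.94 and 17.97 in Vehicle. The part of these markers in the result was not tested.

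With LA, Crp was again the 1 gene of 10 that rose, by 0.60 (SE 0.11, adjusted p = 0.000422), beside 10.6% of all genes called, 3.53% higher and 7.11% lower. Both comparisons use the same 2 Vehicle libraries. This call sits at the threshold: it was lost without LA replicate 2 (0.56), with library-size scaling (0.56), with limma on log2(FPKM + 1) (0.53) and with the GC trend removed (0.23, adjusted p = 0.142). Crp has the lowest GC content of the 10 genes, 41.0%, against a median of 50.5% over the tested genes.

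NTP did not move Crp past the test in either FFA. PA+NTP against PA differed by -0.05 (95% interval -0.26 to 0.17), and LA+NTP against LA by -0.35 (-0.56 to -0.13, adjusted p = 0.00971), under 1.5-fold. The LA+NTP value was positive at 0.10 with the GC trend removed. Crp therefore stood 1.91-fold above Vehicle in PA+NTP (log2 0.94, SE 0.10, adjusted p = 8.45e-05), while the difference in LA+NTP, 0.26, did not pass (adjusted p = 0.277). The difference between the NTP effects was 0.30 (-0.00 to 0.60, adjusted p = 0.692).

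Lcn2, the siderophore-binding lipocalin, was at 152 and 138 FPKM in Vehicle, 181 and 180.15 in PA, 375 and 288 in PA+NTP, 92.4 and 105 in LA, and 142 and 167 in LA+NTP. The 2 PA+NTP libraries were the highest of all and the 2 LA libraries the lowest, and LA+NTP overlapped Vehicle. Lcn2 was the 1 gene of 10 that rose with PA+NTP against PA, by 0.82 (SE 0.11, adjusted p = 3.27e-05), beside 13.9% of all genes called, 8.74% higher and 5.11% lower. It kept its call under every alternative tried, between 0.64 and 0.97. It was also the 1 gene that rose with LA+NTP against LA, by 0.61 (SE 0.11, adjusted p = 0.00029), beside 19.3% called, 11.7% higher and 7.57% lower. That call was lost without LA replicate 1 (0.51), without LA+NTP replicate 2 (0.47) and with the GC trend removed (0.40).

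The FFAs alone moved Lcn2 in opposite directions, each by less than 1.5-fold. PA against Vehicle was 0.35 (SE 0.11, adjusted p = 0.0161), and LA against Vehicle was -0.51 (SE 0.11, adjusted p = 0.002), which was called without LA replicate 2 (-0.60). The direct comparison of PA with LA passed the test for Lcn2 alone of the 10 genes, 1.81-fold (log2 0.86, SE 0.11, adjusted p = 0.000224), beside 3.23% of all genes called, 1.18% higher and 2.04% lower. After NTP the gap between the FFAs was 1.07 (SE 0.11, adjusted p = 2.39e-05). The difference between the 2 NTP effects was 0.21 (-0.12 to 0.53, adjusted p = 0.807), so the rises with NTP under PA and LA were not shown to differ. Against Vehicle, Lcn2 was 2.25-fold higher in PA+NTP (1.17, SE 0.11, adjusted p = 2.3e-05) and differed by 0.10 (-0.13 to 0.33) in LA+NTP.

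Lcn2 is also a gene of neutrophils and of activated macrophages. The defining neutrophil markers S100a8, S100a9, Ly6g and Mpo were in none of the tables. All 7 macrophage markers were detected, and their summed FPKM was 217 and 218 in Vehicle, 218 and 252 in PA, 279 and 312 in PA+NTP, 139 and 143 in LA, and 193 and 206 in LA+NTP. Nearly all of this was Cd68, a lysosomal protein, at 122 to 287 FPKM, and Lyz2 followed at 9.15 to 16.25. Marco, a scavenger receptor, was at 0.67 and 0.58 FPKM in Vehicle, 3.95 and 2.9 in PA, 3.36 and 4.59 in PA+NTP, 0.42 and 0.94 in LA, and 0.95 and 0.75 in LA+NTP. Cd5l lay between 1.16 and 3.94, and Adgre1, Clec4f and Csf1r reached at most 1.12. Of the 7, 2 rose and 1 fell with PA, 0 rose and 1 fell with LA, and 1 rose with PA+NTP against PA. The sum followed Cd68 and was lowest in LA and highest in PA+NTP, as Lcn2 was. Lyz2 was lowest in Vehicle (9.15 and 9.81 FPKM) and Cd5l in PA (1.16 and 1.31). The part of these markers in the Lcn2 result was not tested.

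The gene with the profile most like that of Lcn2 over the 10 libraries was Icam1, the adhesion molecule that leukocytes bind, with Pearson's r = 0.977 on log2(CPM + 1). Icam1 averaged 34.8 FPKM in Vehicle, 41.1 in PA, 54.9 in PA+NTP, 27.6 in LA and 37.3 in LA+NTP. Next came Mycl with r = 0.972, BC048403 with 0.971, Mob3b with 0.966 and Slc26a1 with 0.962. Among the other acute-phase genes r ran from -0.616 for Saa2 and -0.556 for Saa1 to 0.639 for Saa3. These are descriptions over libraries that share treatments.

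**Figure D2:**
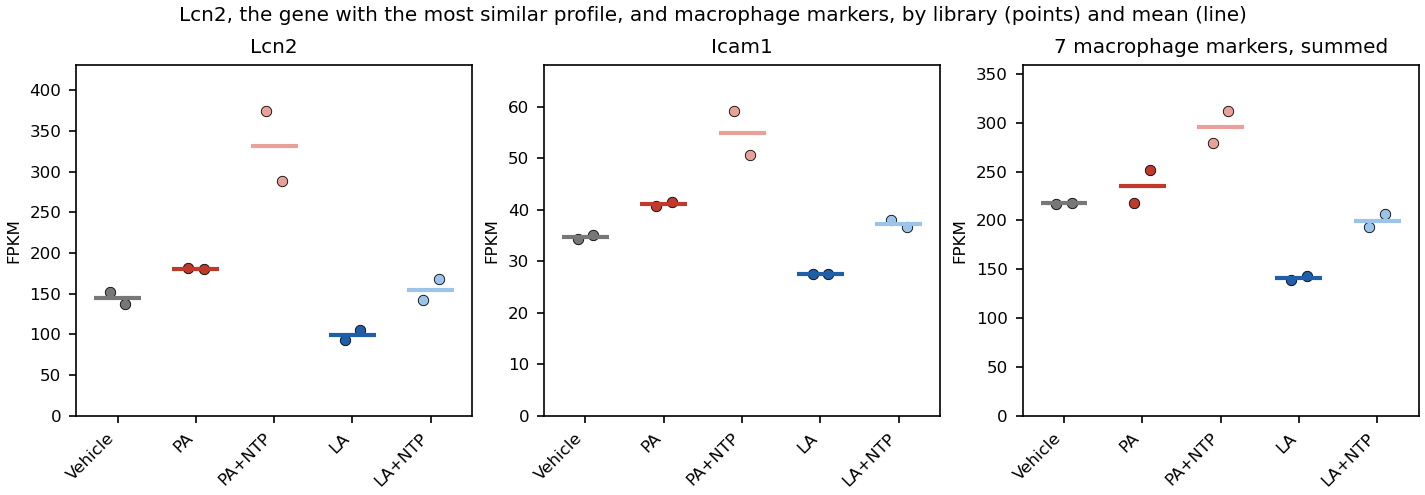
FPKM of Lcn2, of Icam1 and of 7 summed macrophage markers (vertical axes, from 0) in the 5 groups, with points for libraries and lines for means of 2. All 3 panels are lowest in LA, where the marker sum is 139 and 143, and highest in PA+NTP, where it is 279 and 312. Nearly all of the marker sum is Cd68.

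Saa1 and Saa2 are the inducible serum amyloid A genes of the liver. Saa2 was at 123 and 106 FPKM in Vehicle, 141 and 141 in PA, 91.6 and 109 in PA+NTP, 146 and 144 in LA, and 101 and 112 in LA+NTP. All 4 libraries with an FFA alone lay above the other 6. On the log2 scale Saa2 differed from Vehicle by 0.33 with PA (SE 0.10, adjusted p = 0.0107) and 0.39 with LA (SE 0.09, adjusted p = 0.00419). It then differed by -0.55 with PA+NTP against PA (SE 0.09, adjusted p = 0.000332) and by -0.49 with LA+NTP against LA (SE 0.09, adjusted p = 0.000494). None of these reached 1.5-fold, so none was called. With the GC trend removed both NTP values reached it, at -0.70 and -0.68, and without PA+NTP replicate 2 the first was -0.71.

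Saa1 was at 387 and 303 FPKM in Vehicle, 354 and 312 in PA, 281 and 292 in PA+NTP, 340.3 and 311 in LA, and 308 and 309 in LA+NTP. The Vehicle libraries enclosed both FFA groups, and PA+NTP lay below every other library. Its differences from Vehicle were -0.02 with PA and -0.04 with LA. PA+NTP against PA was -0.27 (SE 0.10, adjusted p = 0.0352), under 1.5-fold, and LA+NTP against LA was -0.12 (95% interval -0.32 to 0.09).

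Saa2 made up 24.2% and 26.0% of the counts of the Saa1 and Saa2 pair in Vehicle. The share was 28.6% and 31.1% in PA and 30.2% and 31.9% in LA, and it was 24.7% and 27.3% in PA+NTP and 24.7% and 26.7% in LA+NTP. The lowest of the 4 FFA-only libraries lay above the highest of the other 6, which is a description with no test. The transcripts of the 2 genes were 93.9% identical, and 26.8% of the 31-base stretches of Saa1 also occur in Saa2, so the split of reads between them rests on the estimation by RSEM. Summed, the pair differed by -0.35 with PA+NTP against PA (SE 0.09, adjusted p = 0.00701) and by -0.24 with LA+NTP against LA (SE 0.09, adjusted p = 0.044), neither past 1.5-fold. The sums against Vehicle were 0.08 with PA and 0.09 with LA.

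**Figure D3:**
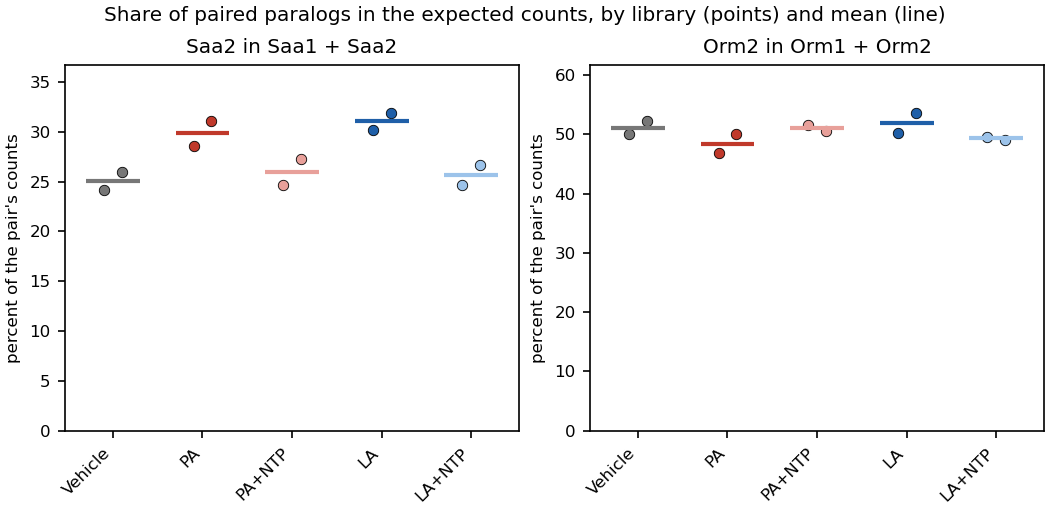
Share of Saa2 in the counts of Saa1 and Saa2, and of Orm2 in those of Orm1 and Orm2, in percent (vertical axes, from 0), with points for libraries and lines for means of 2. The Saa2 share is 28.6% to 31.9% in the libraries with PA or LA alone and 24.2% to 27.3% in the other 6, and the Orm2 share lies between 46.8% and 53.6%.

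Saa3 was at 5.99 and 3.48 FPKM in Vehicle, 9.83 and 4.47 in PA, 7.61 and 5.66 in PA+NTP, 3.18 and 3.82 in LA, and 4.04 and 6.10 in LA+NTP. The 2 PA libraries lay farther apart than the group means did. PA against Vehicle was 0.55 with a wide interval, -0.27 to 1.37, and was called without PA replicate 2 (1.12, adjusted p = 0.0398). At this spread a 1.5-fold difference was not detectable. Saa4, the constitutive member that is not induced in inflammation, was between 21.9 and 27.7 FPKM in all libraries, and its 4 differences ran from 0.01 to 0.10.

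Hp, the hemoglobin binder, was at 1585 and 1393 FPKM in Vehicle, 1691 and 1359.7 in PA, 2188 and 1405 in PA+NTP, 1338 and 1252 in LA, and 1890.5 and 1387 in LA+NTP. Replicate 1 was the higher in each group, and in both NTP groups it lay above all other libraries. PA+NTP against PA was 0.17 (95% interval -0.19 to 0.54) and LA+NTP against LA was 0.30 (-0.06 to 0.66), and neither passed. Hpx, the heme binder, was at 4432 and 4501 FPKM in Vehicle, 5247 and 4899 in PA, 5551 and 4783 in PA+NTP, 4710.5 and 4842 in LA, and 4956 and 4420.4 in LA+NTP. Its largest difference was 0.22 with PA (SE 0.07, adjusted p = 0.0264), with both PA libraries above both Vehicle libraries and the fold under 1.5.

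Orm1 and Orm2 encode alpha-1-acid glycoproteins. Orm1 was between 263 and 325 FPKM in all libraries, and its 4 differences ran from 0.01 to 0.07, each with an interval within 0.25 of 0. Orm2 was at 299 and 285 FPKM in Vehicle, 259.75 and 274 in PA, 317 and 306 in PA+NTP, 300.2 and 312 in LA, and 275 and 311 in LA+NTP. Both PA libraries lay below both Vehicle libraries and both LA libraries above them, with differences of -0.09 and 0.11 that did not pass. PA+NTP against PA was 0.16 (SE 0.07, adjusted p = 0.0575). The transcripts of Orm1 and Orm2 were 91.0% identical and share 27.5% of 31-base stretches of Orm1, and the sum with the third paralog, Orm3, did not pass in any comparison. Orm3 itself was at 1.89 to 3.26 FPKM.

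**Figure D4:**
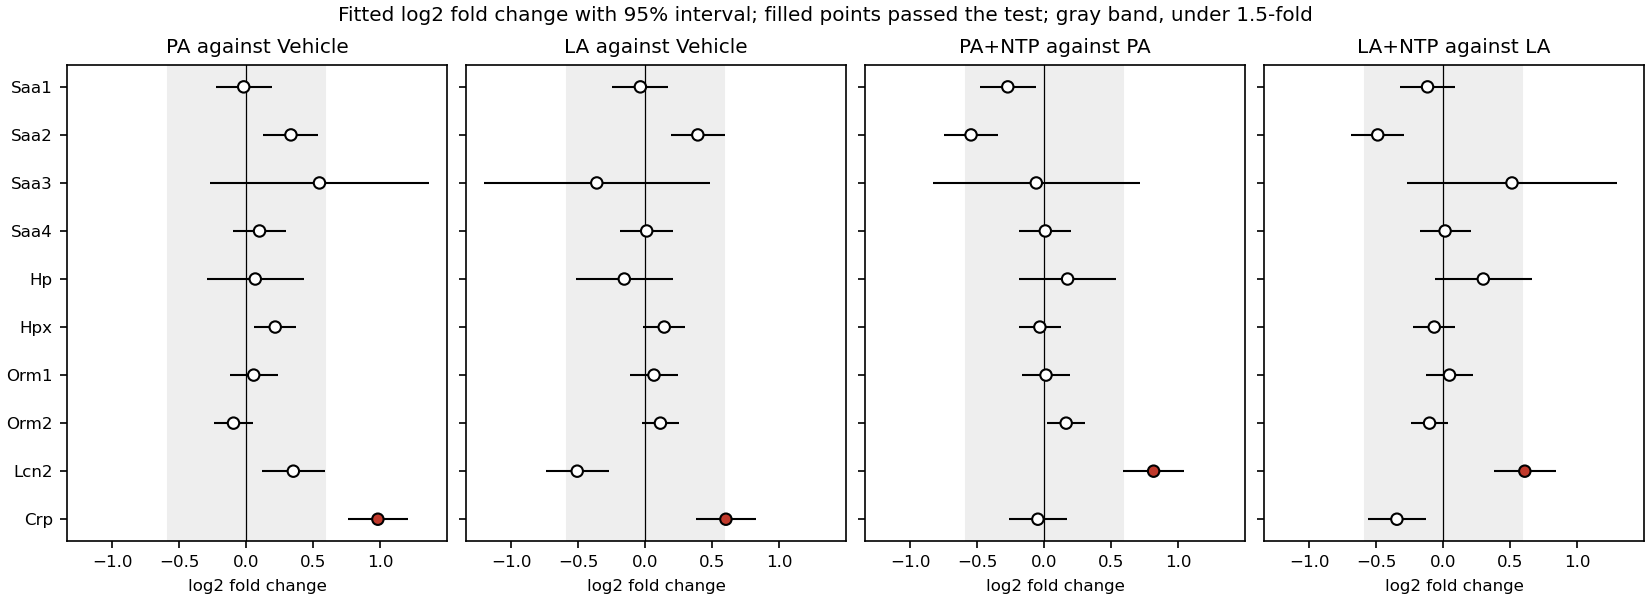
Fitted log2 fold change (horizontal axis) of each acute-phase gene in 4 comparisons, with its 95% interval, where filled points passed the test and the gray band marks changes under 1.5-fold. Crp is filled with PA (0.98) and LA (0.60), Lcn2 with NTP under PA (0.82) and LA (0.61), and Saa2 lies to the right of 0 with each FFA and to the left with NTP.

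Against Vehicle, 2 of the 10 genes were higher in PA+NTP, Lcn2 and Crp, beside 2.85% of all genes called, 1.21% higher and 1.64% lower. In LA+NTP 0 of the 10 were called with edgeR or DESeq2, beside 0.0922% of all genes called with edgeR, 0.0567% higher and 0.0355% lower. At an unadjusted p under 0.05 it was 1, Crp, with each tool, beside 2014 of all 14097 tested genes with edgeR. Between PA+NTP and LA+NTP, 2 of the 10 were higher in PA+NTP, Lcn2 and Crp, beside 3.82% of all genes called, 1.38% higher and 2.45% lower. Crp differed there by 0.68 (SE 0.10, adjusted p = 0.000418), and 0.50 without PA+NTP replicate 1, which lost the call. For the difference of the NTP effects 0 of the 10 were called, and Orm2 was the 1 gene with an unadjusted p under 0.05, at 0.27 (SE 0.09, adjusted p = 0.63), beside 0% of all genes called with edgeR, of which 1029 had an unadjusted p under 0.05, and 5 genes called with DESeq2. The median difference over the 10 genes was 0.16 with PA and 0.04 with LA, and NTP gave -0.01 on top of PA and -0.03 on top of LA, where the medians of all genes lay between -0.01 and 0.01.

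Other positive acute-phase proteins went both ways with PA. Of 27 tested, 2 rose and 4 fell with PA, 0 rose and 1 fell with LA, 4 rose with PA+NTP against PA, and 3 rose and 1 fell with LA+NTP against LA. Among all tested genes 6.00% rose and 8.92% fell with PA, and 3.53% and 7.11% with LA. When NTP was added, 8.74% rose and 5.11% fell under PA, and 11.7% and 7.57% under LA. Apcs, the pentraxin related to Crp, rose with PA by 1.75 (SE 0.23, adjusted p = 4e-05), from 5.62 and 5.31 FPKM in Vehicle to 20.8 and 15.7 in PA. LA gave 0.39 (adjusted p = 0.224). Serpina3n, a protease inhibitor, fell by 1.02 with PA and rose by 0.88 when NTP was added to PA and by 0.74 when it was added to LA. Agt, angiotensinogen, fell by 0.97 with PA and rose by 0.70 and 0.65 with NTP. The Serpina3n rise in PA+NTP was lost without PA replicate 2 (0.54), and those of Agt without replicate 1 of PA+NTP (0.51) or LA+NTP (0.58) and with the GC trend removed (0.39 and 0.25). With that trend removed 1 rose and 5 fell with PA, 0 were called with LA, 1 rose with PA+NTP against PA, and 2 rose and 1 fell with LA+NTP against LA. Of all 14097 tested genes, 1230, 493, 889 and 877 were called at that setting, in the same order.

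Of 15 tested negative acute-phase proteins, 5 fell and 0 rose with PA, where 8.92% of all genes fell and 6.00% rose. The median over the list was -0.39, and 0 were called with LA or with PA+NTP against PA by edgeR or DESeq2. At an unadjusted p under 0.05 in edgeR these were 4 and 7 genes, beside 6872 and 7211 of all 14097 tested genes. Serpina6, which carries corticosteroids in blood, fell by 2.81 (SE 0.37, adjusted p = 3.29e-05). Apoa1, the main protein of high-density lipoprotein, fell by 1.32 (SE 0.14, adjusted p = 6.38e-06), and Ahsg, fetuin-A, by 1.13 (SE 0.10, adjusted p = 1.4e-06). The other 2 were Ttr, the carrier of thyroid hormone, and Apoa2, whose call was lost without PA replicate 2 (-0.52). With LA+NTP against LA 3 of the 15 rose, among them Apoa1 by 0.65, beside 11.7% of all genes. All 3 calls were lost with the GC trend removed (Apoa1 0.31), when 0 rose and 1 fell, beside 877 of all 14097 tested genes called. The Apoa1 call was also lost without LA replicate 2 (0.51) or LA+NTP replicate 1 (0.44). Alb, Apoa1 and Ttr, all on this list, are also hepatocyte markers.

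Of the cytokine that drives the response, few reads were found. Il6 had 2 and 1 counts in Vehicle, 16 and 69 in PA, 24 and 31 in PA+NTP, 3 and 0 in LA, and 1 and 1 in LA+NTP. Scaled for depth, PA held 25.4 times as many as Vehicle (exact 95% interval 8.39 to 125, counting error only), and Il6 was called (adjusted p = 0.000163). PA+NTP against PA was -0.87 (SE 0.45, adjusted p = 0.139). Of 18 tested genes of IL-6 and STAT3 signaling, 1 rose and 1 fell with PA, beside 6.00% and 8.92% of all genes. When NTP was added, 2 of the list rose under PA and 2 under LA, beside 8.74% and 11.7% of all genes. With LA 0 of the 18 were called by edgeR or DESeq2. At an unadjusted p under 0.05 it was 6 with each tool, beside 6872 of all 14097 tested genes with edgeR. The receptor chains Il6ra and Il6st and the factor Stat3 were not called in any of the 4 comparisons, and Stat3 lay between 31.6 and 43.5 FPKM. Socs3, the feedback inhibitor induced by STAT3, was at 0.82 to 1.83 FPKM. It differed by -0.15 with PA (adjusted p = 0.597) and was called with LA+NTP against LA at 0.72 (SE 0.20, adjusted p = 0.00909), a call lost without LA replicate 1 (0.56) or LA+NTP replicate 1 (0.56) and with a sign that turned when the GC trend was removed (-0.15). Pias3, an inhibitor of STAT3, fell by 0.79 with PA and rose by 0.74 and 0.77 with NTP, and Lif, a cytokine of the IL-6 family, rose by 0.67 with PA+NTP against PA. These calls were lost with the GC trend removed (Pias3 -0.50, 0.42 and 0.37, Lif 0.36). Il6 with PA was then the 1 gene of the list still called, beside 1230 of all 14097 tested genes.

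Of 20 tested genes of IL-1, TNF and NF-kappaB signaling, 5 rose and 1 fell with PA, beside the 6.00% and 8.92% of all genes. In the list 1 rose with PA+NTP against PA and 2 rose with LA+NTP against LA, beside 8.74% and 11.7% of all genes. With the GC trend removed 7 rose and 0 fell with PA, 0 were called with PA+NTP against PA, and 1 rose and 1 fell with LA+NTP against LA. Of all 14097 tested genes, 1230, 889 and 877 were called at that setting, in the same order. With LA 0 were called by edgeR and 1 by DESeq2, beside 1500 and 1398 of all 14097 tested genes. At an unadjusted p under 0.05 in edgeR it was 9, beside 6872 of all genes. Il1b had 3 and 2 counts in Vehicle, 27 and 44 in PA, 50 and 52 in PA+NTP, 0 and 0 in LA, and 5 and 18 in LA+NTP. PA held 12.7 times as many as Vehicle (5.2 to 40.3) and LA+NTP at least 4.35-fold more than LA, taking 3 counts over the group as the floor, and the LA+NTP call was lost on log2(FPKM + 1). Il1a rose with PA by 1.66 (SE 0.29, adjusted p = 0.000342). Tnfaip3, an inhibitor of NF-kappaB that NF-kappaB induces, rose by 0.68 with PA, and by 0.54 without PA replicate 1, which lost the call. Nfkbia, another such inhibitor, was 0.55 higher with PA (adjusted p = 1.8e-05), under 1.5-fold, and -0.01 with PA+NTP against PA. Rela, a subunit of NF-kappaB, fell by 0.60 with PA and rose by 0.75 and 0.80 with NTP, and all 3 calls were lost with the GC trend removed (-0.17, 0.29 and 0.22), and the fall also without Vehicle replicate 1 (-0.58). The receptor Il1r1 was -0.41 with NTP under each FFA, under 1.5-fold.

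Of 14 C/EBP and hepatocyte factors, 5 fell with PA and 2 with LA, beside 8.92% and 7.11% of all genes. In the list 1 rose and 1 fell with PA+NTP against PA, beside 8.74% and 5.11% of all genes. With LA+NTP against LA 3 rose, beside 11.7%. With the GC trend removed 1 rose and 3 fell with PA, 1 rose and 0 fell with LA, 0 rose and 1 fell with PA+NTP against PA, and 0 rose and 1 fell with LA+NTP against LA. At that setting 1230, 493, 889 and 877 of all 14097 tested genes were called, in the same order. Cebpb, which binds the C/EBP motif, was at 17.2 and 21.9 FPKM in PA and 14.4 and 11.5 in PA+NTP. It was 0.58 above Vehicle with PA (SE 0.13, adjusted p = 0.00281), just under 1.5-fold, and fell by 0.68 with PA+NTP against PA (SE 0.13, adjusted p = 0.000834). That fall was lost without PA replicate 2 (-0.48) or PA+NTP replicate 2 (-0.55) and was -1.37 with the GC trend removed. Cebpd was at 0.83 to 2.33 FPKM and was not called in the 4 comparisons. Fos, an immediate early factor, fell by 1.29 with PA (SE 0.21, adjusted p = 0.000237). Egr1, another early factor, fell by 1.02 with PA and 0.62 with LA, and the LA call was lost with the GC trend removed (-0.36) and without LA replicate 1 (-0.58).

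Of 14 tested receptors and partners of the acute-phase proteins, 1 rose and 2 fell with PA, beside 6.00% and 8.92% of all genes. With LA 1 fell, beside 7.11% of all genes. In the list 2 rose and 1 fell with PA+NTP against PA, beside 8.74% and 5.11% of all genes. With LA+NTP against LA 2 rose, beside 11.7%. Lrp1, which takes up hemopexin with its heme, fell by 0.93 with PA and 0.62 with LA and rose by 0.68 with LA+NTP against LA, and was called in none of these with the GC trend removed (-0.58, -0.26 and 0.21). Tlr4, a receptor at which serum amyloid A has been reported to act, rose by 0.87 with PA and fell by 0.84 with PA+NTP against PA. Its rise was lost without Vehicle replicate 1 (0.63) or PA replicate 2 (0.57), its fall without PA replicate 2 (-0.55), and both with the GC trend removed (0.57 and -0.54). Lcat, an enzyme of high-density lipoprotein, fell by 0.77 with PA and rose by 0.60 with PA+NTP against PA, from a Vehicle mean of 3.92 FPKM. The fall was lost without Vehicle replicate 1 (-0.63) or PA replicate 2 (-0.69), and the rise without PA replicate 1 (0.65), PA replicate 2 (0.51) or PA+NTP replicate 1 (0.35), and both with the GC trend removed (-0.52 and 0.33). Cd163, the receptor for haptoglobin with hemoglobin, belongs to cells of the macrophage line and was not called in the 4 comparisons.

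**Figure D5:**
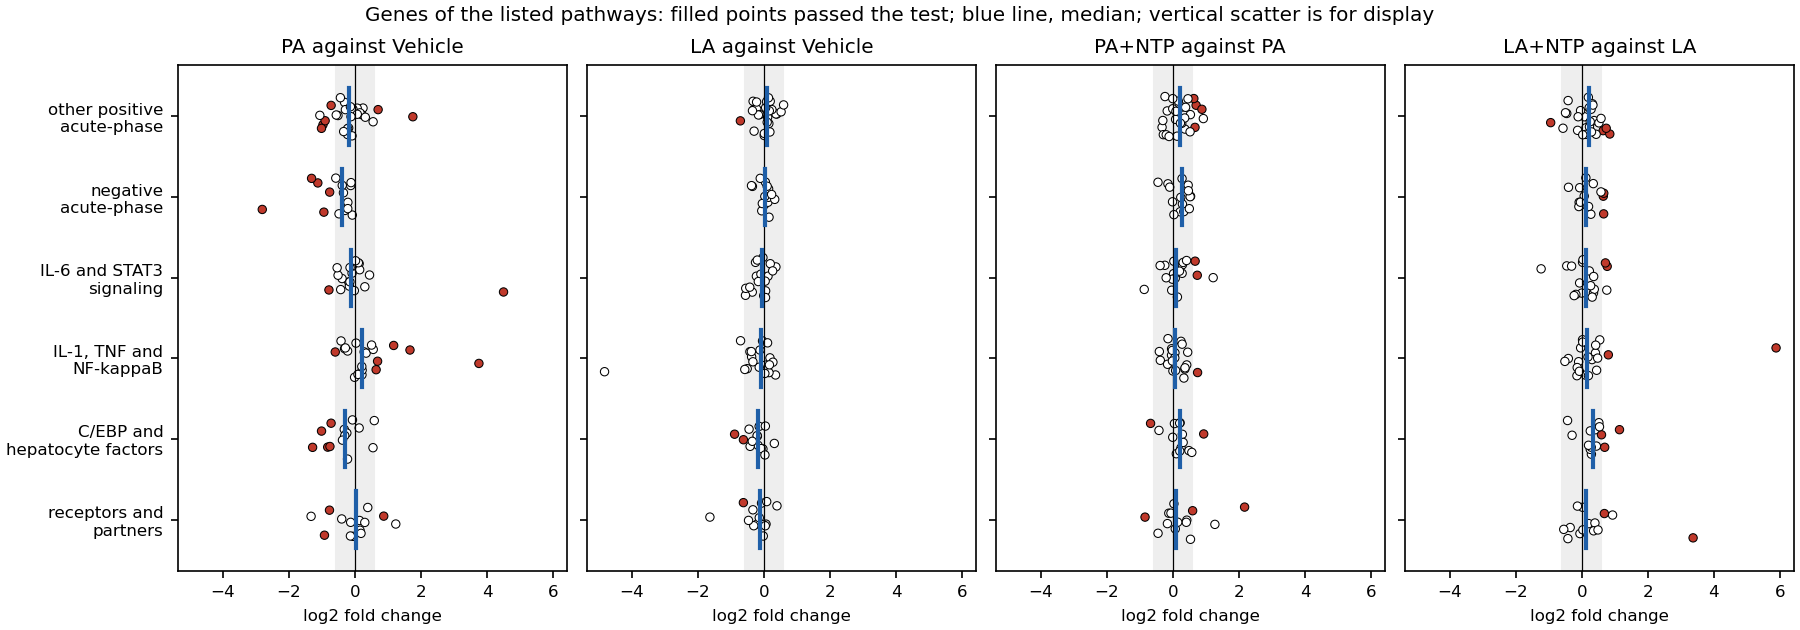
Fitted log2 fold change (horizontal axis) of every tested gene in 6 lists, in 4 comparisons, where filled points passed the test, blue lines are list medians and the gray band marks changes under 1.5-fold. With PA the median of the negative acute-phase proteins lies at -0.39, and the point at the far left with LA and at the far right with LA+NTP is Il1b, which had 0 counts in LA.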

How the data were processed

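RNA-Seq of primary mouse hepatocytes gave 10 libraries, grouped by the sample labels. Where the deposited tables and the labels number replicates differently, the labels were followed. The authors aligned reads with HISAT and Bowtie2, quantified genes with RSEM and deposited, for each library and gene, the expected count and an FPKM scaled by the authors for length and library size, beside the gene's length. Per the labels, the build was mm10, and the sources used here do not give tool versions. A gene absent from a table was taken as 0. Of 18055 gene IDs, 17998 matched the RefSeq table of GRCm38.p6 by ID and 11 by accession.

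Expected counts were rounded and fitted with edgeR 4.0.16 in R 4.3.3, with all 10 libraries, 5 groups, TMM (factors 0.977 to 1.037), filterByExpr (14097 genes kept, 3958 dropped) and the quasi-likelihood F test, which replaced the study's NOISeq. A call needed the study's fold of at least 1.5 and p under 0.05 after Benjamini-Hochberg adjustment. PA+NTP against LA+NTP was added after values were seen. With 2 libraries against 2, an exact two-sided permutation test cannot go below p = 0.333. Intervals on few counts are exact 95% intervals, and these and the floor of 3 counts cover counting error only. Alternatives were DESeq2 1.42.0, library-size scaling, other filters, limma 3.58.1 on log2(FPKM + 1) and log2(FPKM + 0.1), the replicate number as a block, a GC trend removed by loess (span 0.4), summed paralogs, no fold threshold, and each library left out. The code was tested on simulated data.

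The genes and lists were chosen with earlier results of these data known. From each list the text names the 3 called genes with the largest change at a mean FPKM of at least 1, and Il6, Il6ra, Il6st, Stat3, Socs3, Il1b, Il1r1, Nfkbia, Cebpb, Cebpd and Orm3 in any case. For the factors, 1 gene that this rule names is not reported here. Ttr, Apoa2, Cd163 and the macrophage genes Cd68, Lyz2, Marco, Cd5l, Adgre1, Clec4f and Csf1r were named after their values were seen. The lists held 30 other positive acute-phase genes (28 listed in the files, 27 tested), 15 negative, 19 of IL-6 and STAT3 signaling (18 tested), 20 of IL-1, TNF and NF-kappaB signaling, 14 factors, and 18 receptors (14 tested). Likeness to Lcn2 took genes with a mean FPKM of at least 1.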

Additional observations from a re-analysis of the deposited data

Results flagged for a closer look

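Lcn2 differed between the FFAs. PA against LA was 0.859 on the log2 scale, which passed the test (edgeR adjusted p = 0.000224). Every PA library lay above both Vehicle libraries and every LA library below them, with effects of 0.352 and -0.507. After NTP, PA+NTP against LA+NTP was 1.07 (adjusted p = 2.39e-05).

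Crp differed between PA+NTP and LA+NTP by 0.679 (adjusted p = 0.000418), and by 0.50 without PA+NTP replicate 1, which lost the call.

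Orm2 lay below both Vehicle libraries in each PA library and above them in each LA library, with effects of -0.0943 and 0.114. Neither effect passed the test (edgeR adjusted p = 0.269 and 0.188). The margin was small, with 300.19 FPKM in LA replicate 1 against 298.8 in Vehicle replicate 1. The difference between PA and LA was -0.21 and did not pass (adjusted p = 0.0587), and PA and LA share the same Vehicle libraries.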

How the results depend on the processing

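Of 1764 values of single acute-phase genes under an alternative, 0 turned from a call in one direction to the other, 9 lost a call and 16 gained one. Most of the 1764 had no call in the main fit and so could not lose one. The losses were of Crp with LA, Lcn2 with LA+NTP against LA, and Crp between PA+NTP and LA+NTP. A further 118 values, called in neither fit, moved by at least the SE of the main fit. Without the fold threshold, 4 acute-phase genes were called with PA against Vehicle, 3 with LA, 3 with PA+NTP against PA, 3 with LA+NTP against LA and 2 with PA against LA. Of all 14097 tested genes, 6411, 5824, 6306, 7257 and 1569 were called at that setting, in the same order. The 1 call with LA became 0 with library-size scaling, limma on log2(FPKM + 1), limma on log2(FPKM + 0.1) and the GC trend removed, with 3, 3, 3 and 4 of the 10 at an unadjusted p under 0.05. Of all 14097 genes, 1557, 880, 1562 and 493 were called with LA at these settings. With the GC trend removed, 2 of the 10 were called with PA+NTP against PA, beside 889 of the 14097 genes. With no filter on low counts, 2 were called with PA against LA, the second being Saa3, beside 592 of 18027 genes. Leaving out a library leaves 1 in its group, so only effect sizes are given here. Crp ran from 0.92 to 1.06 with PA and from 0.56 to 0.65 with LA. Without LA replicate 2 the LA values were 0.56 for Crp and -0.60 for Lcn2. Lcn2 ran from 0.64 to 0.97 with PA+NTP against PA and from 0.47 to 0.72 with LA+NTP against LA. Between PA+NTP and LA+NTP, Lcn2 ran from 0.90 to 1.22 and Crp from 0.50 to 0.84. The cause of the differences between settings was not tested.

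Without the fold threshold, the genes called in any of the 4 comparisons rose from 9 to 19 of the other positive acute-phase proteins, from 6 to 11 of the negative ones, from 4 to 14 in IL-6 and STAT3 signaling, from 6 to 17 in IL-1, TNF and NF-kappaB signaling, from 6 to 13 among the factors and from 4 to 9 among the receptors. Of all 14097 tested genes, 6411, 5824, 6306 and 7257 were called in the single comparisons without that threshold. Genes called in any of the 4 were not counted over all genes, so these list counts have no matching share beside them. With the GC trend removed, 1 gene was called in IL-6 and STAT3 signaling and 2 among the receptors, and with limma on log2(FPKM + 1) 2 and 2. On that scale changes of genes near 1 FPKM are smaller by construction, as for Il6 with PA, at 1.16.

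The differences between replicates correlated by -0.0692 to 0.127 between groups. Such values cannot decide whether the replicate numbers pair the samples, since the labels do not say how the replicates were made. A fit with the replicate block left 1 call each with PA, LA, PA+NTP against PA and LA+NTP against LA, and the Lcat call with PA+NTP against PA was lost (0.56). Il6 and Il1b rested on 0 to 69 counts in a library, so their folds carry wide counting intervals.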
